A study of Mus musculus with 14 samples.

Results

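The question here was whether losing Atg7 changed gene expression differently in the 2 crypt cell populations that were sorted. The measure is the gate difference, which is the knockout minus wild-type difference in the EGFP high gate minus the same difference in the EGFP low gate. It was computed per gene from group means of log2 values and used 14 of 14 samples. A negative gate difference means that the knockout lay lower, relative to wild type, in the high gate than in the low gate. All mice carried the Lgr5-EGFP-IRES-CreERT2 allele, which puts EGFP and a tamoxifen-inducible Cre under the Lgr5 locus. Mice labelled WT carried that allele alone, and mice labelled Atg7KO also carried Atg7(fl/fl), so Cre and tamoxifen were common to every group. Tamoxifen was given on 5 days and the mice were killed 1 month later. Dissociated crypt cells with low CD24 were sorted as EGFP high, named stem cells in the labels, or EGFP low, named transit amplifying progeny. There were 3 Atg7KO and 3 WT samples of the high gate, and 4 and 4 of the low gate, each from an individual mouse. From each, 1 ng of total RNA was amplified and hybridised to an Affymetrix Mouse Gene 2.0 ST array. Sample names join the group to the title's number. Some numbers occur in both gates, and the labels do not say whether such samples share a mouse. Values of a group are always listed in the order Atg7KO-High-356, Atg7KO-High-348, Atg7KO-High-386, or WT-High-388, WT-High-411, WT-High-412, or Atg7KO-Low-356, then Atg7KO-Low-353, then Atg7KO-Low-387, then Atg7KO-Low-386, or WT-Low-341, WT-Low-407, WT-Low-409, WT-Low-411. Cre acts where Lgr5 is expressed, so a low gate cell lacks Atg7 only if it, or the cell it descends from, had expressed Lgr5. Which Atg7 exons are floxed is not given in these sources.

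Atg7 is the E1-like enzyme that activates the ubiquitin-like proteins needed to extend the autophagosome membrane, and canonical macroautophagy depends on it. Autophagosomes deliver organelles, protein aggregates and membrane to lysosomes, while the proteasome degrades single ubiquitinated proteins, including those that ER-associated degradation pulls out of the endoplasmic reticulum. Crypt epithelium also makes MHC class II, the complex that presents lysosomally cut peptides to CD4+ T cells and that is loaded with the help of the H2-DM heterodimer. In bulk samples such as these, fewer cells of a type and less RNA per cell cannot be told apart.

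The gate labels were checked against stem cell markers. Lgr5, whose locus drives the reporter, ranged from 8.69 to 9.30 log2 units over the 6 EGFP high arrays and from 4.65 to 6.25 over the 8 EGFP low arrays, with no overlap. Olfm4, another stem cell marker, ranged from 11.87 to 12.17 in the high gate and from 10.40 to 11.32 in the low gate. The epithelial gene Epcam lay between 10.10 and 10.52 on all arrays, and the pan-leukocyte gene Ptprc between 3.10 and 3.77. For scale, the 40th percentile of an array lay between 3.75 and 3.98. Markers of other crypt cells were far above it in both gates. In the high gate the Paneth gene Lyz1 ranged from 8.14 to 11.67 and the goblet gene Muc2 from 8.47 to 10.97. Their low gate ranges were 9.93 to 12.17 and 11.38 to 12.37. RNA of Cd24a lay between 9.74 and 10.77 on all arrays, although cells were sorted for low CD24. How far other crypt cells were present in either gate was not tested. Array medians were 4.30 to 4.49. Y-linked genes were detected on 5 of 14 arrays, 2 of them in WT-Low and 1 in each other group.

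Atg7 itself was lower in the knockout in both gates. In the high gate it measured 6.13, 6.37 and 5.91 in Atg7KO-High, against 6.77, 6.76 and 6.83 in WT-High. In the low gate it measured 5.78, 6.06, 6.05 and 5.65 in Atg7KO-Low, against 6.92, 6.77, 7.49 and 6.46 in WT-Low. The genotypes did not overlap in either gate. The gate difference of Atg7 was 0.38 (SE 0.29, limma adjusted p = 0.565), so a difference in how far Atg7 was lowered was not detectable. The knockout difference was -0.65 (SE 0.22) in the high gate and -1.02 (SE 0.19) in the low gate, and neither passed the adjusted threshold (limma adjusted p = 0.208 and 0.166).

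Of 15873 genes tested, 1 had a gate difference at adjusted p under 0.05 in limma, the long non-coding RNA gene Gm12292, which is 0.00630% of the genes. The same fit called 2 genes for knockout against wild type in the high gate, Gm12292 and Pxdn, and 1 gene in the low gate, Rnf5. Without adjustment, 2225 genes (14.0%) had p under 0.05 for the gate difference, against 794 that chance would give if all genes were unchanged. Of these, 1347 were negative (8.49% of all genes) and 878 positive (5.53%). By sign alone, 52.9% of all genes were negative and 47.1% positive. The median gate difference over all genes was -0.03 and the median SE 0.28. Within the high gate, 950 genes (5.99%) were higher and 1569 (9.88%) lower in the knockout at unadjusted p under 0.05, and 53.8% of all genes had a negative difference. Within the low gate, 612 (3.86%) were higher and 540 (3.40%) lower, 7.26% in all. Knockout and wild-type arrays did not overlap in the high gate for 15.2% of genes with the knockout lower and 10.2% with it higher. With 1 more array in each group, the low gate shares were 1.69% and 1.71%.

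The genes with p under 0.05 did not mostly move one way in both gates. In 1229 of the 2225 (55.2%) the knockout was lower in the high gate and higher in the low gate, a pattern held by 29.3% of all genes tested. In 815 (36.6%) it was higher in the high gate and lower in the low gate, against 25.1% of all genes. A shift of the same sign that was larger in the high gate accounted for 166 genes, and a larger shift in the low gate for 15. Selecting genes on the gate difference itself favours opposite signs, so these shares describe the selected genes and are no test. The high gate held the larger of the opposite shifts in 939 of the 1229 and 635 of the 815. Across all 15873 genes, the knockout difference in the high gate correlated with that in the low gate with a Pearson coefficient of -0.13 and a Spearman rank coefficient of -0.14, with genes not being independent replicates. That correlation was 0.03 without WT-Low-411, a single array.

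**Figure D1:**
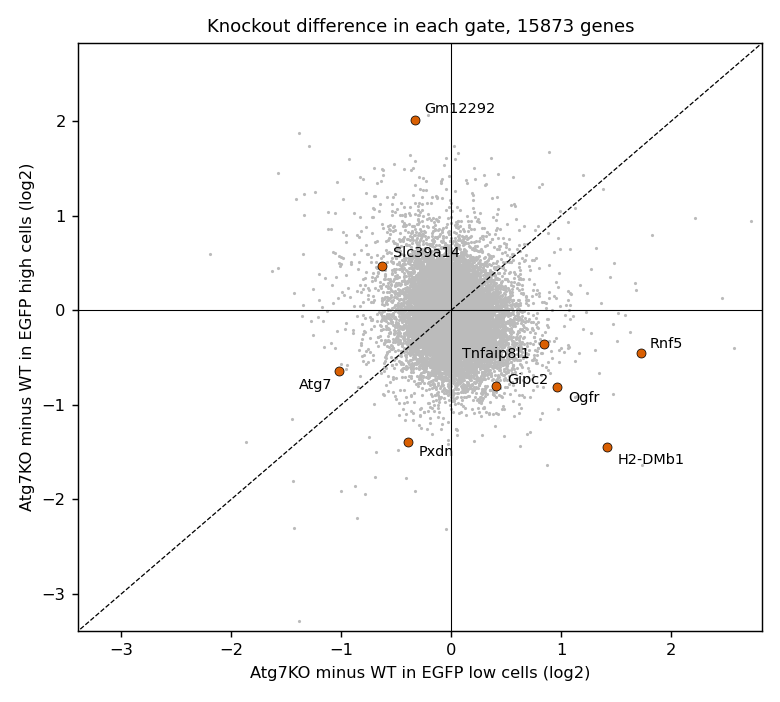
Each grey point is 1 of 15873 genes, placed by its Atg7KO minus WT difference in EGFP low cells (x axis, log2) and in EGFP high cells (y axis, log2), and the dashed line marks equal differences. Gm12292 sits at 2.01 in the high gate and -0.33 in the low gate, while H2-DMb1 and Rnf5 lie on the other side of the line, with positive differences in the low gate only.

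The sign of the gate difference followed how strongly a gene was expressed. Genes were split into 5 equal groups by mean level. The median gate difference was 0.15 in the lowest group, and from there upward 0.12, -0.02, -0.21 and -0.30. In the upper 2 groups, 73.1% of genes were negative and 16.3% were negative at unadjusted p under 0.05, or 20.3% in the top group alone, against 1.8% in the lower 2. The spread of an array was smallest on average in Atg7KO-High. The SD over the log2 values of each array averaged 1.94 ± 0.04 (SD, n = 3) in Atg7KO-High, 2.04 ± 0.04 (n = 3) in WT-High, 2.02 ± 0.03 (n = 4) in Atg7KO-Low and 2.00 ± 0.07 (n = 4) in WT-Low. Every Atg7KO-High array had a smaller SD than every WT-High array, and WT-Low-411 was the narrowest array of the low gate. The gate difference of the array SD was -0.12 and did not pass 0.05 (two-sided exact permutation test, p = 0.0571, 1400 arrangements). The part of array spread in the gene results below was not tested. Fitting the values after another quantile normalization gave medians of 0.02 in the lowest and -0.07 in the highest level group, and cyclic loess gave 0.01 and -0.03. With the array SD as a covariate they were -0.03 and -0.04, and 865 genes had unadjusted p under 0.05. With array weights they were 0.14 and -0.27, and without Atg7KO-High-356 and WT-Low-411 they were 0.07 and -0.18. The negative share of such genes was 60.5% as deposited, 47.4% after quantile normalization, 46.4% after cyclic loess, 48.4% with the covariate and 79.2% after median centring. It was 74.1% with a strict filter on low values and 51.8% with none.

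**Figure D2:**
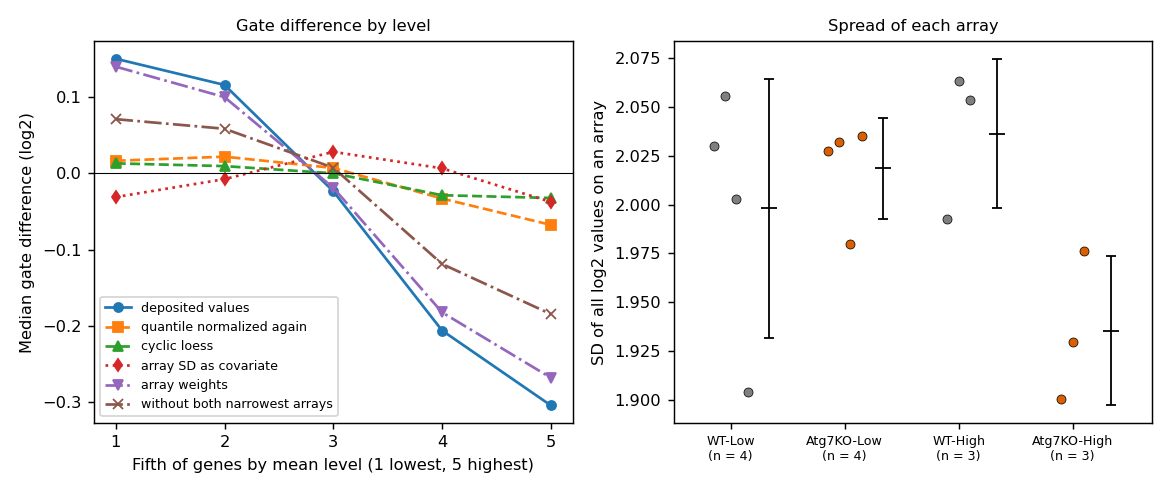
The left panel gives the median gate difference (log2) in each of 5 groups of genes by mean level, for the deposited values and for 5 alternatives. The deposited values descend from 0.15 to -0.30, array weights and leaving out both narrowest arrays keep a descent, and the other alternatives lie near 0. The right panel gives the SD over each array's log2 values by group, with the group mean and SD beside the points; the Atg7KO-High arrays lie between 1.90 and 1.98.

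Gm12292 was the gene whose response to Atg7 loss depended most clearly on the gate. In the high gate it measured 6.97, 6.68 and 6.65 in Atg7KO-High, and 5.08, 4.62 and 4.58 in WT-High. In the low gate it measured 5.03, 4.87, 5.01 and 5.00 in Atg7KO-Low, and 5.10, 5.27, 5.41 and 5.43 in WT-Low. The Atg7KO-High arrays stood above all 11 others, and the genotypes did not overlap in either gate, with the knockout on opposite sides. The gate difference was 2.33 (SE 0.22, limma adjusted p = 0.00039), a 5.04-fold ratio of the knockout effects. The knockout was higher by 2.01 (SE 0.16, limma adjusted p = 7.08e-05) in the high gate, while the low gate difference of -0.33 (SE 0.14) did not pass (adjusted p = 0.665). Read the other way, Gm12292 was higher in high than in low gate knockout cells by 1.79 (limma adjusted p = 7.2e-05), and -0.54 apart in wild type (adjusted p = 0.0791). The gene lies on chromosome 11 beside Elac2, which encodes a tRNA-processing nuclease. The gate difference of Elac2 was -0.03 and did not pass unadjusted p under 0.05. The call was lost without the samples whose title number occurs in both gates (gate difference 2.17, limma adjusted p = 0.475), which leaves 1 array in Atg7KO-High.

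Rnf5 showed the reverse arrangement, with the shift in the low gate. It encodes a membrane-anchored ubiquitin ligase of the endoplasmic reticulum that marks misfolded proteins for degradation. Low gate levels were 6.01, 6.52, 6.49 and 6.33 in Atg7KO-Low, and 5.12, 4.74, 4.50 and 4.09 in WT-Low. In the high gate it measured 4.56, 4.52 and 5.07 in Atg7KO-High, and 5.42, 5.06 and 5.01 in WT-High. The 4 Atg7KO-Low arrays were the highest of all 14, and in the high gate the genotypes overlapped through Atg7KO-High-386. The knockout was higher by 1.72 (SE 0.21, limma adjusted p = 0.013) in the low gate and differed by -0.45 (SE 0.24, adjusted p = 0.375) in the high gate. The low gate call was lost on leaving out WT-Low-407 or any of the Atg7KO-Low samples other than Atg7KO-Low-356, with limma adjusted p of 0.0555 to 0.0881 and differences of 1.66 to 1.77. The gate difference was -2.18 (SE 0.32) and just missed the threshold (limma adjusted p = 0.0593). It passed under 5 of 26 alternatives, among them without WT-Low-341 (adjusted p = 0.0149), and the highest adjusted p was 0.681 with the array SD in the fit. Among knockout samples, Rnf5 was lower in the high than in the low gate by -1.62 (limma adjusted p = 0.000921), against 0.55 in wild type (adjusted p = 0.257).

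Most neighbours of Rnf5 had its negative sign, but no negative one had unadjusted p under 0.05. Rnf5 lies in the class III part of the mouse MHC on chromosome 17, and 19 genes within 250 kb were tested. Of these, 13 were negative, with a median of -0.15, and the 2 with unadjusted p under 0.05, Ager at 0.88 and Egfl8 at 0.65, were positive. The other genes of the ER-associated degradation list had smaller values than Rnf5. Of 43, 34 were negative and 4 had unadjusted p under 0.05, all negative, which is 9.3% beside 8.49% of all genes. Of the 43, 35 lay in the upper 2 level groups, where 16.3% of genes were negative at unadjusted p under 0.05 and 73.1% negative by sign. The median was -0.30, at -0.17 in the high gate and 0.05 in the low gate. Rad23b, which shuttles ubiquitinated proteins to the proteasome, had a gate difference of -0.71. Vcp, the ATPase that extracts proteins from the membrane, had -1.04 and a high gate knockout difference of -1.05. Its partner Ufd1 had -0.67, with the knockout arrays above all wild-type arrays in the low gate. The median with Rnf5 was -0.10 after either other normalization and 0.01 with the array SD as a covariate.

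**Figure D3:**
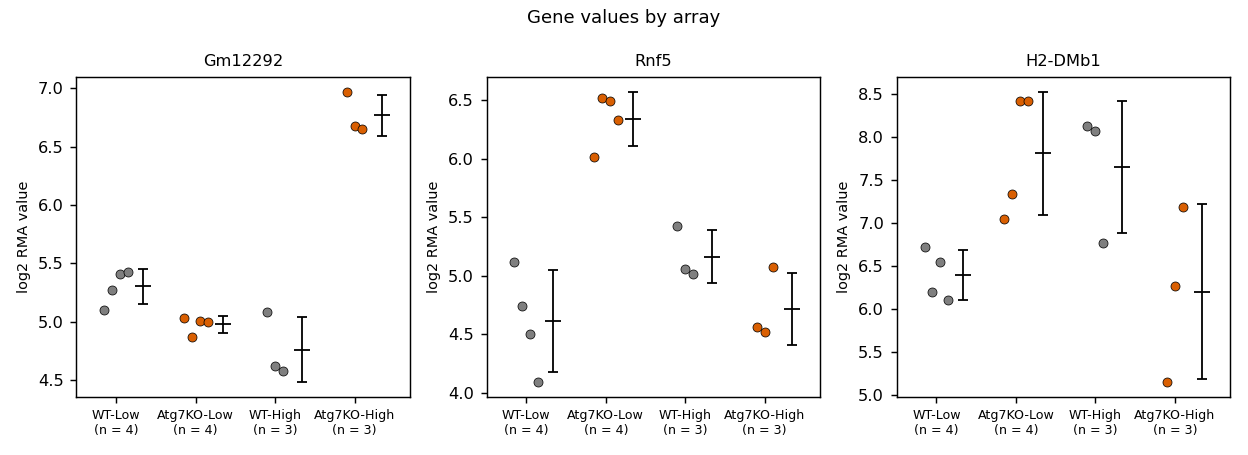
Each point is the log2 RMA value of 1 array, with the group mean and SD at its right, for Gm12292, Rnf5 and H2-DMb1 in the 4 groups. Gm12292 stands apart in Atg7KO-High, Rnf5 in Atg7KO-Low, and H2-DMb1 has its lower values in WT-Low and Atg7KO-High.

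H2-DMb1 encodes the beta chain of the H2-DM heterodimer, which removes the invariant chain fragment from MHC class II so that peptide can bind. In the high gate it measured 5.15, 6.27 and 7.19 in Atg7KO-High, and 8.12, 8.07 and 6.77 in WT-High. Its low gate values were 7.05, 7.34, 8.42 and 8.42 in Atg7KO-Low, and 6.72, 6.20, 6.55 and 6.11 in WT-Low. The genotypes were apart in the low gate and overlapped in the high gate, where WT-High-412 lay below Atg7KO-High-386. The gate difference of -2.86 (SE 0.65) did not pass (limma adjusted p = 0.176), from -1.45 (SE 0.49) in the high gate and 1.41 (SE 0.43) in the low gate. Over 26 alternatives it ran from -3.36 to -2.24 and was called in 0. In knockout samples alone H2-DMb1 was lower in the high than in the low gate by -1.60 (limma adjusted p = 0.0385), while in wild type the high gate was 1.26 above the low gate (adjusted p = 0.19). The near-identical copy H2-DMb2 fell under the filter on low values. It measured 4.25, 4.75 and 3.31 in WT-High and between 1.81 and 2.81 on all other arrays, and the array's probes may not separate the copies. The neighbours of H2-DMb1 also mostly had its sign. Of 31 genes tested within 250 kb, 27 were negative, with a median of -0.57. In 9 of the 31, all negative, unadjusted p was under 0.05, beside 8.49% of all genes. They included H2-DMa, H2-Aa, Tap1, Tapbp and Psmb9, which are described below, and also Pfdn6 (-0.84) and Wdr46 (-0.93). The presentation lists below thus share genes with this window.

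The promoter of H2-DMb1 is shown beside those of 2 classical class II genes, because genes of this family share regulatory sequence. Class II genes are switched on through a conserved X box, bound by RFX factors, and a Y box, bound by NF-Y, on which the co-activator CIITA assembles. The sequences below are the 250 bases before the RefSeq start (GRCm38.p6), 5′ to 3′ along each gene, with matches to an X-box-like pattern (AACTNNTGA) and the Y-box core (TGATTGG) in capitals. Both patterns were chosen after the sequences were seen and were searched on both strands, and the matches do not overlap each other.
H2-DMb1, chr17:34152941-34153190, plus strand: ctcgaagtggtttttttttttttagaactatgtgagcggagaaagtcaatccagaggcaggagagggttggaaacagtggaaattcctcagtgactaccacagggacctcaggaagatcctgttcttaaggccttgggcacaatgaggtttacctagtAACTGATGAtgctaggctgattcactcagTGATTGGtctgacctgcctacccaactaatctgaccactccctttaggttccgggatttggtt
H2-Eb1, chr17:34305617-34305866, plus strand: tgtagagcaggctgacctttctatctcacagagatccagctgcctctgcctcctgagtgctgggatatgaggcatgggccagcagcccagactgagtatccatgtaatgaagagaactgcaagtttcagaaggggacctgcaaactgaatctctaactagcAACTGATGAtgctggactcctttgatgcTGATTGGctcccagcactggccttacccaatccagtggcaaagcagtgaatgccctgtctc
H2-Aa, chr17:34287824-34288073, minus strand: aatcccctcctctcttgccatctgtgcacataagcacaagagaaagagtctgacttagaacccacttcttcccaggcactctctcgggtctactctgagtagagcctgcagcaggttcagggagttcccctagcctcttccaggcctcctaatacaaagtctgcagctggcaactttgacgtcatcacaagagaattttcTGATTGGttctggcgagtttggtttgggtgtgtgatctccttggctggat
H2-DMb1 and H2-Eb1 hold both patterns at nearly the same place, with the X-box-like match starting 92 and 89 bases and the Y core 63 and 61 bases before the start. Of these patterns H2-Aa holds only the Y core, starting 50 bases before the start. An X box with other letters would not match the X-box-like pattern, so H2-Aa is not shown to lack one. Of 32851 promoter windows of this length, 7.23% held the Y core, 3.19% the X-box-like pattern and 0.20% both. RefSeq promoters were found for 11 of the 16 class II list genes tested, and 6 of these genes held the Y core and 2 held both patterns. A match is a description of letters and not of binding.

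The other class II genes mostly had the sign of H2-DMb1, with smaller values. Of the 15 others tested, 14 were negative, 4 had unadjusted p under 0.05, all negative (26.7%, beside 8.49% of all genes), and 0 were called. Their median was -0.56, at -0.44 in the high gate and 0.14 in the low gate, against -0.03 for all genes. With H2-DMb1 the median over 16 genes was -0.60. H2-DMa, the partner chain of H2-DMb1, had a gate difference of -1.27 (SE 0.40), Rfxank, a subunit of the RFX complex, -0.81 (SE 0.32), and Ctss, the protease that trims the invariant chain, -0.50 (SE 0.21). The classical chains and the invariant chain are given here although their values were known when they were chosen. H2-Aa had -1.81 (SE 0.82), H2-Eb1 -1.16 (SE 0.62), H2-Ab1 -0.64 (SE 0.53) and Cd74 -0.53 (SE 0.46). In these 4 genes the high gate carried most of the value, from -1.34 for H2-Aa to -0.46 for Cd74, and the low gate differences lay between 0.04 and 0.48.

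Within a group the class II genes varied by individual. The mean over the 16 genes was 6.67, 7.05 and 7.27 in Atg7KO-High, and 7.58, 7.68 and 7.30 in WT-High. In the low gate it was 6.68, 7.17, 7.30 and 7.40 in Atg7KO-Low, and 7.11, 6.65, 6.85 and 6.96 in WT-Low. The high gate groups were separated by 0.02, between WT-High-412 and Atg7KO-High-386, and the low gate groups overlapped. Leaving out each sample in turn gave list medians from -0.83 to -0.49. Leukocytes also make class II, and of 34 leukocyte markers 22 passed the filter, with a median gate difference of 0.02. The 2 with unadjusted p under 0.05 were the cytotoxic granule gene Gzmb at -1.33 (SE 0.43) and the T cell gene Cd8a at 0.60 (SE 0.26), both picked out after their values were seen. The mean of those 22 was 4.51, 4.53 and 4.47 in Atg7KO-High, and 4.55, 4.57 and 4.34 in WT-High. It was 4.24, 4.44, 4.68 and 4.72 in Atg7KO-Low, and 4.46, 4.38, 4.44 and 4.58 in WT-Low. Within Atg7KO-Low and within WT-High the arrays stood in the same order for the leukocyte and class II means, and in the other groups they did not. The part of leukocytes in the class II values was not tested. Itgax and Adgre1, of dendritic cells and macrophages, were at most 3.77 and 3.71 on any array, beside a 40th percentile of 3.75 to 3.98. The T cell gene Cd3e ran from 3.46 to 4.23 and passed the filter. The B cell gene Cd79a ran from 2.90 to 4.14 and did not.

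Other antigen presentation genes had the same sign. In the class I list, 26 of 28 genes were negative, 9 with unadjusted p under 0.05 (32.1%, beside 8.49% of all genes). The median was -0.48, and ran from -0.63 without Atg7KO-High-386 to -0.28 without Atg7KO-High-356. The peptide transporter gene Tap1 had -1.20 (SE 0.36), the loading chaperone gene Tapbp -0.95 (SE 0.32), the non-classical H2-T23 -1.19 (SE 0.41) and the immunoproteasome gene Psmb9 -0.93 (SE 0.33). In the interferon-stimulated list, 37 of 44 were negative, 11 with unadjusted p under 0.05 (25.0%, beside the same 8.49%). The median was -0.44. Dtx3l and Parp9, partners in a ubiquitin ligase and ADP-ribosyltransferase pair, had -1.17 (SE 0.28) and -1.26 (SE 0.35). The RNA sensor gene Ifih1 had -0.85 (SE 0.21) and the transcription factor gene Irf8 -1.22 (SE 0.30). Of these 8 genes, Tapbp, Dtx3l, Ifih1 and Irf8 had every Atg7KO-High array below every WT-High array, which 15.2% of all genes also showed. All 8 overlapped between genotypes in the low gate. In the upper 2 level groups were 16 of the 44 interferon-stimulated, 17 of the 28 class I and 10 of the 16 class II genes. There, 16.3% of genes were negative at unadjusted p under 0.05 and 73.1% negative by sign. The median of all 44 interferon-stimulated genes was -0.44 after quantile normalization, -0.42 after cyclic loess and -0.64 with the array SD in the fit. The class I median was -0.33, -0.27 and -0.46, and the class II median -0.51, -0.45 and -0.45 under the same settings.

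Genes of the proteasome were all on 1 side. All 31 tested were negative, from -1.03 to -0.01, and 15 had unadjusted p under 0.05 (48.4%, beside 8.49% of all genes), but 0 were called. The median was -0.47, from -0.33 in the high gate and 0.17 in the low gate. The regulatory particle genes Psmd3, Psmd12 and Psmd1 had gate differences of -1.03 (SE 0.30), -0.94 (SE 0.29) and -0.80 (SE 0.25), and the assembly chaperone gene Psmg1 -0.73 (SE 0.22). The mean of the list was 8.50, 8.60 and 8.81 in Atg7KO-High, against 8.77, 9.17 and 8.97 in WT-High. In the low gate it was 8.98, 9.10, 8.96 and 9.02 in Atg7KO-Low, against 8.92, 8.94, 8.78 and 8.72 in WT-Low. The high gate groups overlapped, through Atg7KO-High-386 and WT-High-388, and all low gate knockout arrays lay above all low gate wild-type arrays. All 31 genes were in the upper 2 level groups, where 16.3% of genes were negative at unadjusted p under 0.05, and the median was -0.28 after quantile normalization, -0.18 after cyclic loess and -0.21 with the array SD as a covariate.

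**Figure D4:**
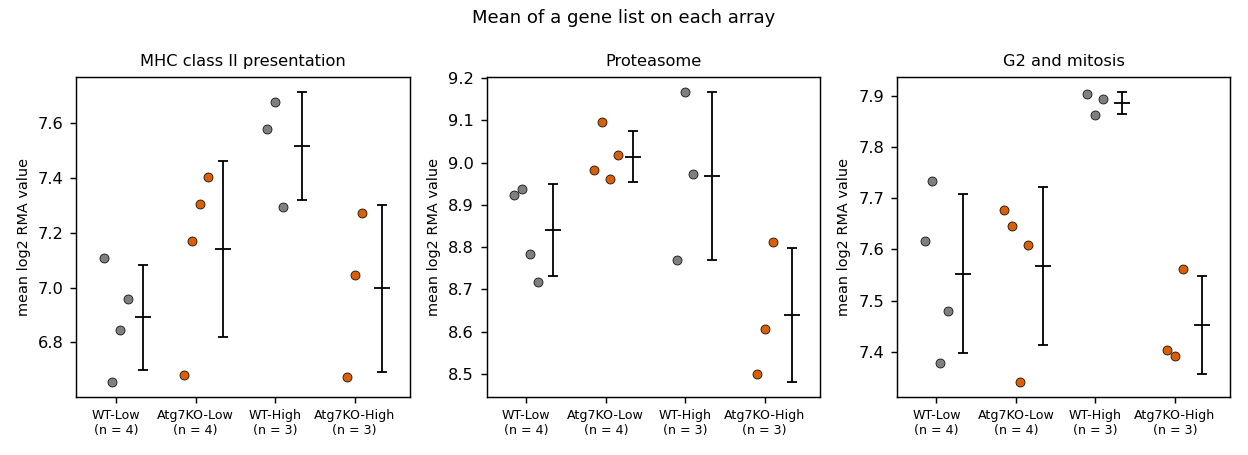
Each point is the mean log2 RMA value of the MHC class II (16 genes), proteasome (31 genes) or G2 and mitosis (67 genes) list on 1 array, with the group mean and SD at its right. In each panel the Atg7KO-High mean lies below the WT-High mean, and in the class II and proteasome panels the Atg7KO-Low mean lies above the WT-Low mean.

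By sign, 71.7% of autophagy and 72.5% of lysosome genes were negative, beside 52.9% of all genes and 73.1% in the upper 2 level groups. Of the 46 genes in the list of Atg7 partners, 33 were negative and 4 had unadjusted p under 0.05, all negative (8.7%, beside 8.49% of all genes), with a median of -0.15 that ran from -0.29 without WT-Low-409 to -0.071 without WT-Low-411. Of the 46, 20 lay in the upper 2 level groups. With the array SD in the fit the median of the 46 was -0.0012, with 23 positive and 23 negative. Atg3, the E2-like enzyme that receives LC3 from Atg7, had the smallest p, with a gate difference of -0.80 (SE 0.19, limma adjusted p = 0.187). It measured 8.40, 8.31 and 8.68 in Atg7KO-High, and 8.98, 9.20 and 9.12 in WT-High. The low gate arrays overlapped, at 9.04 to 9.33 in the knockout and 8.90 to 9.09 in wild type. Atg4b, the protease that primes LC3, had -0.60, the ER-phagy receptor gene Tex264 -0.56 and the cargo receptor gene Sqstm1 -0.44. In the lysosome list 29 of 40 were negative and 8 had unadjusted p under 0.05 (20.0%), led by the proton pump genes Atp6v0d1 at -0.95 (SE 0.28) and Atp6v1b2 at -1.04 (SE 0.35). Of the 40, 30 lay in the upper 2 level groups, with their share of 16.3%. The median of -0.27 was -0.15 without WT-Low-411, -0.06 after either other normalization and 0.08 with the array SD in the fit. The unfolded protein response list had a median of -0.18, with the chaperone genes Dnajb11 at -0.69 and Pdia4 at -0.84 and the stress factor gene Ddit3 at 0.80. That median was 0.01 after quantile normalization, 0.02 after cyclic loess and 0.03 without Atg7KO-High-356.

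Cell cycle lists had lower medians in high gate knockout samples. In the G2 and mitosis list 64 of 67 were negative and 22 had unadjusted p under 0.05, all negative (32.8%), with a median of -0.43. Its median was -0.46 in the high gate and 0.01 in the low gate. In the S phase list 51 of 55 were negative and 14 had unadjusted p under 0.05 (25.5%), with a median of -0.53, at -0.39 in the high gate and 0.10 in the low gate, where 42 of the 55 were positive. The S phase median was -0.34 without Atg7KO-High-356. In these lists 61 of 67 and 47 of 55 genes lay in the upper 2 level groups, where 16.3% of genes were negative at unadjusted p under 0.05. The spindle checkpoint kinase gene Ttk measured 6.75, 7.08 and 7.15 in Atg7KO-High, below 7.66, 7.65 and 7.70 in WT-High. Its gate difference was -0.98 (SE 0.22, limma adjusted p = 0.176). The spindle protein gene Tacc3 had -0.76, Cdc20, the activator of the anaphase-promoting complex, -0.98, and the centriole kinase gene Plk4 -0.83. Both gates contributed to Cdc20, at -0.52 in the high and 0.46 in the low gate, and to Plk4, at -0.38 and 0.45. Of the S phase genes, the fork protection gene Tipin had -1.18 (SE 0.31; -0.64 in the high and 0.54 in the low gate), Rpa1, which coats single-stranded DNA, -1.25 (SE 0.39), and the deubiquitinase gene Usp1 -0.75 (SE 0.24). The mean of the G2 and mitosis list was 7.40, 7.39 and 7.56 in Atg7KO-High, and 7.90, 7.86 and 7.89 in WT-High. These high gate groups did not overlap. The low gate means ran from 7.34 to 7.68 in the knockout and 7.38 to 7.73 in wild type, and overlapped. The list medians were -0.24 and -0.32 after quantile normalization and -0.28 and -0.14 with the array SD as a covariate, for G2 and mitosis and for S phase.

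Genes of the Lgr5 stem cell list were near the background. Of 37 genes in that list, 22 were negative and 4 had unadjusted p under 0.05 (10.8%, beside 8.49% of all genes). The median of -0.14 was 0.06 after cyclic loess and 0.09 with the array SD as a covariate. In the Wnt target list 5 of 29 had unadjusted p under 0.05, all negative (17.2%). Lgr5 had a gate difference of -0.19 (SE 0.46, limma adjusted p = 0.869). The proliferation factor gene Myc had -0.64 (SE 0.19) and was the Wnt target whose arrays separated in both gates, on opposite sides, at 9.37, 9.44 and 9.46 in Atg7KO-High against 9.65, 9.74 and 9.78 in WT-High. In the low gate Myc measured 9.36, 9.24, 9.38 and 9.09 in Atg7KO-Low, against 9.09, 9.00, 8.68 and 8.92 in WT-Low. Written to 2 decimals the lowest knockout and highest wild-type low gate arrays tie at 9.09. The Notch effector gene Hes1 had -0.78 (SE 0.24), the Wnt target gene Sp5 -0.89 (SE 0.33) and the RNA-binding protein gene Msi1 -0.53 (SE 0.21). In the reserve and regenerative stem cell list 11 of 19 were negative, with a median of -0.28 that was -0.07 after quantile normalization. Unadjusted p was under 0.05 for 4 of the 19, all negative (21.1%). Krt7 had -0.83, and the annexin genes Anxa2 and Anxa3 had -0.79 and -0.85, Anxa2 from the high gate (-0.84 there, -0.06 in the low gate) and Anxa3 from the low gate (0.20 and 1.06). The DNA damage checkpoint targets had a median of -0.02, and Cdkn1a, the cyclin-dependent kinase inhibitor among them, had -0.99 (SE 0.33, limma adjusted p = 0.254). Cdkn1a measured 6.11, 6.56 and 7.08 in Atg7KO-High against 7.63, 7.61 and 7.51 in WT-High, with a low gate difference of -0.01.

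Redox and metabolic genes showed opposite medians in the gates. In the peroxide and superoxide enzyme list 25 of 27 were negative and 7 had unadjusted p under 0.05 (25.9%, beside 8.49% of all genes). Medians were -0.33 in the high and 0.20 in the low gate. Of the 27, 17 lay in the upper 2 level groups. There, 16.3% of genes were negative at unadjusted p under 0.05 and 73.1% negative by sign. Glrx5, a mitochondrial glutaredoxin that helps transfer iron-sulfur clusters, had -1.22 (SE 0.27), and mitochondrial thioredoxin Txn2 had -0.84 (SE 0.24). In the NRF2 target list 26 of 33 were negative and 8 had unadjusted p under 0.05 (24.2%). Of the 33, 21 lay in the upper 2 level groups. Idh1, which makes cytosolic NADPH, had -1.38 (SE 0.31), the thioredoxin reductase gene Txnrd1 -0.69 (SE 0.19), the pentose phosphate gene Taldo1 -0.96 (SE 0.27) and the glutathione transferase gene Gstm5 -0.86 (SE 0.28). Txnrd1 came from the high gate (-0.66, against 0.03 in the low gate) and Gstm5 from the low gate (0.74, against -0.12). Adding the array SD to the fit turned the medians of -0.45 and -0.44 into -0.09 for peroxide and superoxide enzymes and -0.03 for NRF2 targets. Oxidative phosphorylation had a median of -0.33, with 39 of 48 negative and 11 at unadjusted p under 0.05 (22.9%), and Sdhb and Ndufs1, of complexes II and I, were both at -0.72. Of the 48, 42 lay in the upper 2 level groups, and the top group's own share was 20.3%. The median was -0.067 after cyclic loess, with 22 positive and 26 negative, and -0.11 with the array SD in the fit. In the low gate 44 of these 48 genes were positive, against 50.3% of all genes. The cholesterol synthesis list had 20 of 21 negative, 7 with unadjusted p under 0.05 (33.3%), and 14 of the 21 lay in the upper 2 level groups. Its median was -0.57, at -0.48 in the high gate and 0.09 in the low gate. That median was -0.40 after quantile normalization and -0.38 after cyclic loess. With the array SD in the fit it was -0.32, with 7 positive and 14 negative. The sterol transporter gene Stard4 had -0.87, and the pathway enzymes Dhcr7 and Mvk had -0.93 and -0.61.

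**Figure D5:**
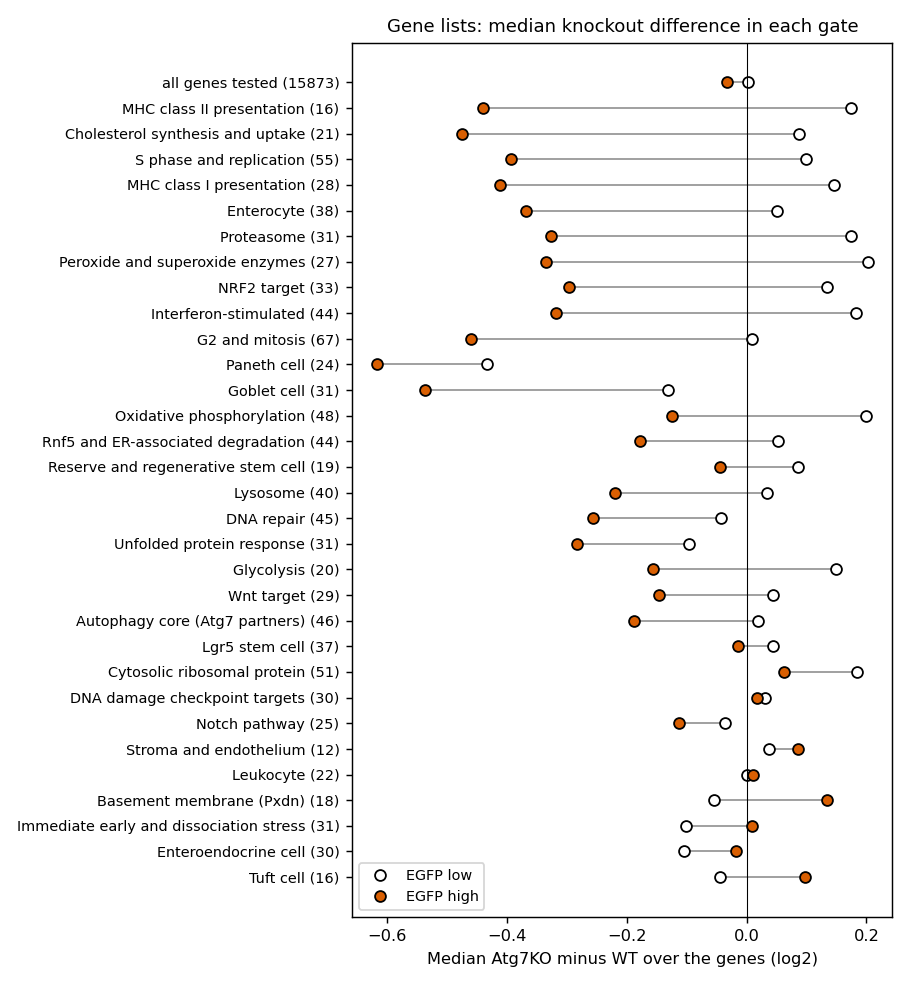
For each gene list, with its number of tested genes in parentheses, the filled point is the median Atg7KO minus WT difference (log2) in EGFP high cells and the open point that in EGFP low cells; lists are ordered by median gate difference. For all genes the points lie at -0.03 and 0.00, and the MHC class II list has the widest median gate difference at -0.60. Without H2-DMb1 the class II median is -0.56, and the cholesterol synthesis list has -0.57.

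Goblet, Paneth and enterocyte marker lists also had lower medians in high gate knockout samples. Of their genes, 24 of 31, 22 of 24 and 28 of 38 lay in the upper 2 level groups. There, 16.3% of genes were negative at unadjusted p under 0.05, 73.1% were negative by sign and the median was -0.26. The shares of the 3 lists at unadjusted p under 0.05 were below that 16.3%. The goblet list had 25 of 31 negative and 1 with unadjusted p under 0.05 (3.2%, beside 8.49% of all genes). Its median gate difference was -0.33, with medians of -0.54 in the high gate and -0.13 in the low gate. Without Atg7KO-High-356 and WT-Low-411, the narrowest arrays of the high and low gate, the median gate difference was 0.03. Leaving out 1 sample, it ran from -0.63 without Atg7KO-High-386 to -0.068 without Atg7KO-High-356. The goblet list mean was 6.47, 6.96 and 7.61 in Atg7KO-High, and 7.75, 7.39 and 7.55 in WT-High, so the groups overlapped. Clca1, secreted with goblet mucus, had -1.36 (SE 0.57). The Paneth list had 18 of 24 negative, 2 with unadjusted p under 0.05 (8.3%, beside 8.49% of all genes) and a median of -0.42, and its medians were -0.62 in the high and -0.43 in the low gate. The gate difference median was -0.14 after cyclic loess, with 11 positive and 13 negative, and -0.27 without Atg7KO-Low-353. Its mean was 7.76, 8.48 and 8.20 in Atg7KO-High, all below 8.82, 9.45 and 9.01 in WT-High. Itln1, a lectin, had -1.34 (SE 0.66), from -2.20 in the high gate and -0.86 in the low gate. Guca2b, which encodes uroguanylin and was counted in the Paneth list, had -1.59 (SE 0.41).

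The enterocyte list had 32 of 38 negative and 4 with unadjusted p under 0.05 (10.5%, beside 8.49% of all genes). Its median was -0.48, with medians of -0.37 in the high gate and 0.05 in the low gate. The fatty acid binding protein gene Fabp1 had -1.38 (SE 0.46) and the apolipoprotein gene Apoa1 -1.24 (SE 0.51). Enterocyte list means were 6.86, 6.83 and 7.00 in Atg7KO-High, and 7.71, 6.91 and 7.28 in WT-High. WT-High-388 was highest, and the list median was -0.21 without it. The enteroendocrine and tuft lists had medians of 0.18 and 0.24, with 17 of 30 and 10 of 16 positive. Enteroendocrine genes ran from -1.14 for Reg4 to 0.82 for Rfx6, and the 2 with unadjusted p under 0.05 were Insm1 at 0.54 and Pcsk1n at -0.44. Tuft genes ran from -0.57 for Cd24a to 0.53 for the channel gene Trpm5, which alone had unadjusted p under 0.05. Reg4, Rfx6, Pcsk1n and Cd24a were picked out after their values were seen. Both medians moved with single arrays. The enteroendocrine median ran from -0.30 without Atg7KO-High-386 to 0.53 without Atg7KO-High-356, and the tuft median was -0.03 without WT-Low-411 and -0.15 when the fit held the array SD. The part of these cell type markers in the other gene groups was not tested.

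Among genes at or above the median level, the 12 negative gate differences with the smallest p ran from adjusted p = 0.126 to 0.176 in limma, so none passed. Gipc2, a PDZ protein gene, measured 7.53, 7.48 and 7.56 in Atg7KO-High, against 8.04, 8.59 and 8.35 in WT-High. The low gate arrays read 8.63, 8.60, 8.59 and 8.53 in Atg7KO-Low, against 8.34, 8.25, 8.10 and 8.03 in WT-Low. The knockout was thus below all wild-type arrays in the high gate and above them in the low gate, and the gate difference was -1.21 (SE 0.20). Ogfr, the opioid growth factor receptor gene, was separated in the same way, with -1.78 (SE 0.30). Tnfaip8l1 had -1.20 (SE 0.23). Ogfr and Tnfaip8l1 were called without WT-Low-341 (limma adjusted p = 0.036 and 0.0348). The other 9 were Wbp11, a splicing factor gene (-1.05), Cpne3 (-1.02), the histone mRNA binding protein gene Slbp (-0.90), Mall (-1.48), the mitochondrial ribosome gene Mrpl16 (-1.26), the RNA polymerase II subunit gene Polr2g (-1.22), Ypel5 (-1.53), the phosphatase 2A catalytic gene Ppp2ca (-0.82) and the succinyl-CoA ligase gene Suclg1 (-0.96). In each of these 9 the Atg7KO-High arrays lay below all WT-High arrays, which 15.2% of all genes also showed. Selecting genes on a negative gate difference favours this separation, so it is no test.

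The 12 positive gate differences with the smallest p had adjusted p from 0.174 to 0.226 in limma. Slc39a14, a zinc and iron importer gene, measured 6.93, 6.62 and 6.75 in Atg7KO-High, against 6.26, 6.27 and 6.37 in WT-High. Low gate levels were 6.44, 6.47, 5.97 and 6.59 in Atg7KO-Low, against 6.94, 7.01, 7.15 and 6.90 in WT-Low. The genotypes separated in both gates on opposite sides, with a gate difference of 1.10 (SE 0.22). The adenylate cyclase gene Adcy6 (0.81), Zfp512b (0.74) and the RNA gene Gata6os (1.35) also separated on opposite sides. Clca3a2, a chloride channel accessory gene and the most highly expressed of the 12, had 1.66 (SE 0.44). Its Atg7KO-High arrays, at 10.66, 10.64 and 10.60, all exceeded the highest WT-High array at 10.33. The others were Tmtc2 (1.31), Nat8f3 (1.41), the serine protease gene Prss48 (1.42), the proprotein convertase gene Pcsk5 (0.89), Fthl17b (1.13), the splicing regulator gene Clasrp (0.78) and Abhd1 (0.92). Abhd1 took most of its value from the low gate, at -0.76, while Tmtc2, Nat8f3, Prss48, Pcsk5 and Clasrp took most from the high gate, between 0.57 and 1.10.

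Separation in both gates on opposite sides was held by 68 genes. In 44 (0.277% of all genes) the knockout arrays were all below wild type in the high gate and all above in the low gate, and in 24 (0.151%) the reverse. On the same side in both gates there were 45 genes with the knockout lower (0.284%), Atg7 among them, and 13 with it higher (0.0819%). Of the 68, 43 met the level and symbol rule for naming, and the 10 with the smallest p were Gipc2, Ogfr, Tnfaip8l1, Slc39a14, Polr2g, Ccdc124, Mrpl36, Gcat, Stard3nl and Mrpl43. All but Slc39a14 were lower in high gate and higher in low gate knockout cells. Mrpl36 and Mrpl43, of the large mitochondrial ribosomal subunit, had -1.11 and -1.07, and Gcat, a mitochondrial enzyme of threonine breakdown, had -1.43. Ccdc124, a ribosome-associated protein gene, had -1.52, and Stard3nl, a protein gene of endosome contacts with the endoplasmic reticulum, had -0.96.

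Pxdn, the peroxidase gene that crosslinks collagen IV in basement membrane, was called in the high gate alone, but its gate difference was not. It measured 3.89, 3.83 and 3.66 in Atg7KO-High, against 5.46, 5.31 and 4.78 in WT-High. The low gate arrays overlapped, at 3.32, 3.68, 3.68 and 3.60 in Atg7KO-Low and 4.15, 3.63, 3.88 and 4.21 in WT-Low. All 7 knockout arrays were at or below 3.89, and the 40th percentile of an array lay between 3.75 and 3.98, so these values are close to the array's low end. The knockout was lower by -1.39 (SE 0.20, limma adjusted p = 0.0427) in the high gate and differed by -0.39 (SE 0.17, adjusted p = 0.665) in the low gate, and the gate difference was -0.995 (SE 0.26, adjusted p = 0.222). The high gate call was lost on leaving out any 1 of 9 samples, with limma adjusted p of 0.057 to 0.358 and differences of -1.44 to -1.25. These were Atg7KO-Low-353, Atg7KO-Low-386, Atg7KO-Low-387, WT-Low-341, WT-Low-409, Atg7KO-High-348, Atg7KO-High-356, WT-High-388 and WT-High-411, the last giving the highest p. In wild type, Pxdn was higher in the high than in the low gate by 1.22 (limma adjusted p = 0.00504), and in the knockout by 0.22 (adjusted p = 0.484). The basement membrane list as a group had a median gate difference of 0.09.

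The gate difference can also be read as how far the gates differ within each genotype. Between high and low gate, limma called 193 genes higher and 194 lower in the high gate in wild type (2.44% of genes in all), and 711 higher and 1023 lower in the knockout (10.9%). These counts do not test the difference between genotypes, for which the gate difference is the test. Both moved with the samples used, since the wild-type count was 1201 with array weights and 103 without WT-High-412, and the knockout count was 498 with the array SD as a covariate and 781 without Atg7KO-High-356.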

How the data were processed

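The deposited table holds 1 log2 value per probe set and array, which the authors computed by RMA in Affymetrix Expression Console, according to the submitters' processing notes. Tool versions and the genome build are not given here. RMA forces the arrays to a common distribution of probe values and can thereby shrink large differences. There is no read depth, so the precision is set by how many arrays there were. Deposited log2 values span 1.65 to 13.78.

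Of 25429 probe sets, 24675 had 1 gene symbol and 754 had none and were left out. Entrez IDs of all 24675 matched RefSeq genes of GRCm38.p6. A gene was tested where 3 or more arrays reached that array's 40th percentile, leaving 15873. Samples were grouped by the ending of their titles. limma 3.58.1 (lmFit, eBayes) in R 4.3.3 fitted 4 group means over 14 arrays, with 10 degrees of freedom left, to which eBayes added 4.54. P-values are two-sided and Benjamini-Hochberg adjusted over all 15873 genes, called under 0.05. SE comes from that fit. The labels say samples came from individual mice, so p-values measure the spread between these samples. If samples with the same title number share a mouse, the 14 samples are not all independent.

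The genes and the 31 gene lists described were chosen with earlier results of these data known. Named are Gm12292, Rnf5, H2-DMb1, Pxdn, Atg7, Cdkn1a and Lgr5, called genes, the 12 smallest p in each direction at or above the median level (5.75) without predicted gene symbols, the 10 smallest p among genes separated on opposite sides, and from each list up to 4 members by smallest p. From some lists fewer are printed. Lists are described by counts and medians without a test. Some lists share members, such as 10 between Lgr5 stem cell and Wnt targets.

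Alternatives covered the prior, array weights, the title number as a block, filters on low values, 3 normalizations, 2 covariates (array SD, and the mean of 3 Y-linked genes) and leaving out samples. RefSeq promoter sequences were searched as letters.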

Additional observations from a re-analysis of the deposited data

Results flagged for a closer look

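The knockout effect on Gm12292 differed between the gates by 2.33 log2 units, and this difference was itself tested and passed. In the groups of 4 samples, the highest or lowest array was compared with the others as its gap to the nearest array over the group's range. Of 266 such groups 12 (4.5%) had an array past the critical value, and chance gives about 1 in 20.

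WT-Low-341 was the highest for Tnfaip8l1 (6.34 against 5.76 for the next, ratio 0.965), and WT-Low-409 the lowest for Ccdc124 (6.74 against 7.35, ratio 0.992) and for Pcsk5 (6.38 against 6.76, ratio 0.84). WT-Low-411 was the lowest for Rad23b (8.35 against 8.89, ratio 0.851), and WT-Low-407 the highest for Tipin (7.00 against 6.68, ratio 0.871). Atg7KO-Low-356 was the lowest for Atg4b (4.40 against 4.90, ratio 0.846) and for Anxa2 (9.29 against 9.73, ratio 0.921). Atg7KO-Low-353 was the lowest for Gstm5 (8.36 against 8.86, ratio 0.854) and for the mean of the NRF2 target list (7.06 against 7.37, ratio 0.863). Atg7KO-Low-386 was the highest for Txnrd1 (8.31 against 8.11, ratio 0.83) and for Mvk (6.60 against 6.20, ratio 0.863). Atg7KO-Low-387 had the smallest array SD of its group (1.98 against 2.03, ratio 0.86). The causes were not tested.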

How the results depend on the processing

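Gm12292 kept its call for the gate difference in 25 of 26 alternatives, and all 26 kept its direction. Counts of genes called for the gate difference, 1 as reported, were 2 with array weights, with the replicate block and with the strict filter, and 0 without the title numbers found in both gates. In each case of 2, the added gene was Rnf5. Leaving out 1 sample gave 1 to 4, with Rnf5, Tnfaip8l1 and Ogfr added without WT-Low-341 and Rnf5 and Zg16 without Atg7KO-High-386. For the high gate the 2 calls became 703 with array weights and 1, Gm12292, with no filter, the strict filter or the Y-linked covariate. The strict filter left Pxdn untested. The count was 1 to 43 leaving out 1 sample. Without the shared title numbers, which leaves 1 array in Atg7KO-High, the high gate differences were 1.85 for Gm12292 and -1.29 for Pxdn. For the low gate the single call became 0 without both narrowest arrays and without the shared numbers, and 0 to 2 leaving out 1 sample. High against low calls in wild type (193 higher, 194 lower) became 1201 with array weights and 137 without the shared numbers, and 103 to 442 leaving out 1 sample. In the knockout (1734) they became 498 with the array SD covariate, 1110 without both narrowest arrays and 274 without the shared numbers, and 781 to 2122 leaving out 1 sample. Genes with unadjusted p under 0.05 (2225) became 865, 1417 and 1175 under these 3 settings, and 1424 to 2626 leaving out 1 sample. The gate difference of the array SD lay between -0.14 and -0.090 leaving out 1 sample (exact p = 0.0257 to 0.12). Lgr5 turned positive with array weights (0.061), cyclic loess (0.022), the array SD covariate (0.55), without both narrowest arrays (0.13), without the shared numbers (0.083) and without WT-Low-411 (0.091), and was lowest, at -0.38, without WT-Low-341. Median centring moved the median gate difference of all genes to -0.15 and the strict filter to -0.18. The cause of these changes was not tested.

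The title numbers of Atg7KO-High-356, Atg7KO-High-386 and WT-High-411 also occur in the low gate. Deviations of same-numbered samples from their group means correlated at 0.12, 0.18 and -0.04, so the numbers were not taken to pair samples, and only Atg7KO-High-386 correlated best with its own low gate partner. With the number as a replicate block (consensus correlation 0.07), 2439 genes had unadjusted p under 0.05 for the gate difference.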

Other observations

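Other gene groups gave values that no comparison above describes. Cytosolic ribosomal protein genes had a median gate difference of -0.11, with 35 of 51 negative, and 40 of 51 were higher in low gate knockout than low gate wild-type samples. Rpl29 stood at the far end, with -1.73 (SE 0.65, limma adjusted p = 0.284), on low gate values of 9.64, 8.59, 9.75 and 9.23 in Atg7KO-Low and 8.83, 8.85, 7.58 and 6.70 in WT-Low. Ribosomal protein genes have many processed pseudogene copies, and the array's probes may not separate them. Glycolysis genes had a median of -0.16, with 17 of 20 negative, and the phosphofructokinase gene Pfkl had -1.04 (SE 0.24). Its high gate values were 4.62, 4.99 and 5.25 in Atg7KO-High and 5.62, 5.93 and 6.07 in WT-High, and the groups did not overlap. DNA repair genes had a median of -0.19 with 33 of 45 negative, which was 0.07 with the array SD as a covariate. Wnt target genes had -0.16 with 20 of 29 negative, and Notch pathway genes -0.01 with 14 of 25 negative, which was 0.12 with that covariate.

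Immediate early and dissociation stress genes, which respond to the handling of tissue, had a median of 0.11 with 19 of 31 positive. That median was -0.09 without Atg7KO-High-348, the highest array of its group at a list mean of 7.02. Stroma and endothelium markers, of which 12 of 26 passed the filter, had a median of 0.02 and 0 with unadjusted p under 0.05.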
